A study of Mus musculus with 2 samples.

Results

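Cytokine and growth factor receptor chains were followed in macrophages sorted from the mouse colon, on 1 array from mice that drank water and 1 array from mice with chemically induced colitis. The set holds 44 genes, listed by symbol with earlier results of these data known. They are the chains that bind interleukins, interferons, colony-stimulating factors and related growth factors, with the receptors of IL-1 and IL-10 left aside. Of these, 41 had a probe set listed under their symbol, among 19938 such genes on the array, and Il2rg, Il11ra1 and Il1rl1 were not analysed here. The control group was given drinking water for 5 days, and the treated group received 3% dextran sulfate sodium (DSS) in its water for the same 5 days. DSS is a sulfated polysaccharide that damages the colonic epithelium. In both groups the cells were lamina propria macrophages, sorted as CD45+IAb+CD11b+F4/80+CD103- and therefore selected on surface proteins that some monocytes and dendritic cells share. Strain, genotype, sex and age of the mice, and how many were pooled for an array, are not stated in the labels.

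Cytokine receptors are assembled from chains that are often shared. Class I chains such as the common gamma chain, gp130 and the beta common chain pair with private chains that set which ligand is bound, and they signal through JAK kinases and STAT transcription factors. Interferon receptors are class II chains that use the same kinases, IL-17 and IL-18 receptors signal through adaptor proteins to NF-kB, and the receptors for M-CSF, stem cell factor and FLT3 ligand are tyrosine kinases themselves. Macrophages of the gut wall depend on M-CSF and are replenished by blood monocytes, whose progenitors respond to several of these factors.

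Values are RMA signals on the log2 scale (RMA corrects background, normalises between arrays and summarises probes into a probe set). A difference is the DSS signal minus the control signal, from which folds were computed as powers of 2. The median probe set read 5.70 for control and 5.62 for DSS, and a gene was taken as past the signal rule when it reached the median on at least 1 array. With 1 array per group there was no replicate error and no test, so each difference compares these 2 arrays, and a hybridisation or scan effect cannot be told apart from the treatment. As a scale for the spread within a gene, the differences of its probe sets past the signal rule had a pooled SD of 0.28 over 638 genes. This spread holds no replicate error. The sorted antigens were bright on both arrays. Ptprc (CD45) read 11.54 in control and 11.94 in DSS, H2-Ab1 (IAb) 11.99 and 12.13, Itgam (CD11b) 9.59 and 10.19, and Adgre1 (F4/80) 11.65 and 10.82. Itgae, which encodes the excluded CD103, was below the median on both at 4.89 and 4.91.

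Markers of other myeloid cells differed widely between the arrays. Of 16 neutrophil markers, 12 were at least 2-fold higher on the DSS array, and the summed linear signal of all 16 was 2056 in control and 34208 in DSS. Mpo, Elane, Itgb2l and Padi4 did not reach 2-fold. Of the 14 neutrophil markers past the signal rule, 9 passed through the DSS array only, so the rule favoured their differences. Of 8 measured monocyte markers, 7 exceeded 2-fold in the same direction and 1 was lower, with summed signals of 4616 and 18443. All 13 resident macrophage markers had negative differences, 7 of them of at least 2-fold, and summed to 22422 in control and 9298 in DSS. None of the measured markers of B cells (4), eosinophils (4), epithelium (6) or fibroblasts and endothelium (6) reached 2-fold. In bulk RNA, fewer cells of a type and less RNA per cell cannot be told apart. The part of these cells in the receptor differences below was not tested.

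**Figure D1:**
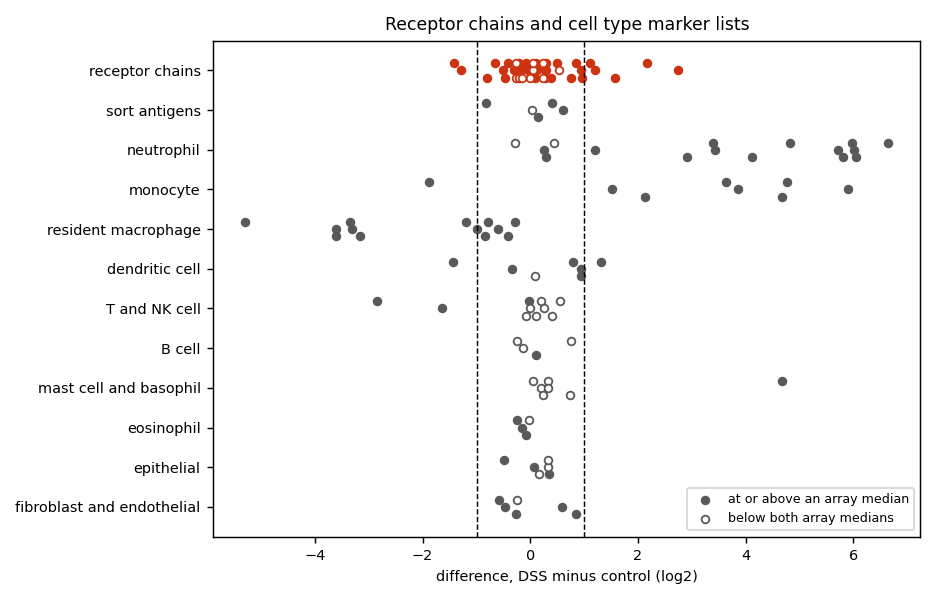
Differences between the DSS and control arrays (log2, horizontal axis) for 41 receptor chains and for the genes of 11 marker lists, 1 point per gene, spread vertically for legibility. Dashed lines mark 2-fold, and open points are genes below the median of both arrays. Receptor chains lie between -1.42 and 2.75, a narrower span than the neutrophil and resident macrophage markers.

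The chains divided into a minority that differed and a majority that did not reach 2-fold. Of the 41 measured chains, 31 passed the signal rule. Among these, Il18rap, Csf3r, Il15ra, Il13ra1 and Il17ra were at least 2-fold higher in DSS, Il7r and Lifr were lower by at least as much, and 24 remained within these limits. The 5 higher chains were 16.1% of the 31, beside 3.99% of all 11163 genes past the rule, and the 2 lower chains were 6.45% beside 3.03%. Without the signal rule the same counts were 12.2% of the 41 measured chains beside 2.25% of 19938 genes, and 4.88% beside 1.72%. The set was chosen with earlier results of these data known, so these shares describe it and do not test it. The median difference was 0.13 over the 31 chains and -0.03 over all genes past the rule. Of the 31, 27 reached the median on both arrays. Il18rap, Il18r1 and Il12rb2 passed through the DSS array only and Epor through the control array only, so for these 4 the rule itself favoured a difference in that direction.

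**Figure D2:**
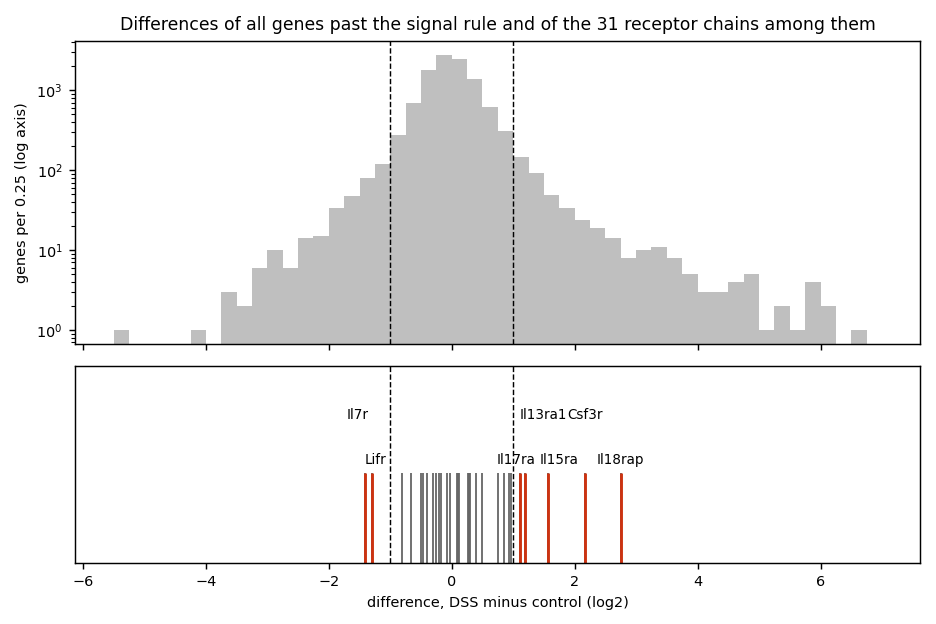
Upper panel, number of genes per 0.25 of difference (log axis) among the 11163 genes past the signal rule. Lower panel, the differences of the 31 receptor chains past the rule, 1 line per chain, with the 7 chains at least 2-fold apart in red and named; dashed lines mark 2-fold. Most chains lie in the central bulk of all genes, with Il18rap at 2.75 and Il7r at -1.42 at the ends.

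Just inside the 2-fold line stood Il17ra, with a difference of 1.11. Just outside it were Kit at 0.96, Flt3 at 0.94, Csf2rb at 0.85 and, in the lower direction, Il6st at -0.80. Kit and Flt3 crossed the line once the arrays were centred, with differences of 1.05 and 1.02 under median centring and 1.07 and 1.02 under loess centring.

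The sequences upstream of the 4 chains furthest apart, 2 in each direction, are shown because these chains carry the main differences. They are the 250 bases before a transcript start in RefSeq (GRCm38.p6), written 5′ to 3′, with matches to any of 5 searched motifs in capitals. Lifr has 2 listed starts.
Il18rap (chr1:40515112-40515361, plus strand): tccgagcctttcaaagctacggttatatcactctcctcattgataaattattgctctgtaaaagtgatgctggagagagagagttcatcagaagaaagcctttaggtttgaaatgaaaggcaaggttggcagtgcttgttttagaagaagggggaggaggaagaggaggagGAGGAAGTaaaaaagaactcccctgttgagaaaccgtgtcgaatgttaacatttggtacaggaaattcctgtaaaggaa
Csf3r (chr4:126024409-126024658, plus strand): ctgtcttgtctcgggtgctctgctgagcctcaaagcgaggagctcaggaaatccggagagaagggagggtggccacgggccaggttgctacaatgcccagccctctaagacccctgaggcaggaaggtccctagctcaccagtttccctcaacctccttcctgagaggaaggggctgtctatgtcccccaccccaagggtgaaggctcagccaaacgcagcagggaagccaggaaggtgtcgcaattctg
Il7r (chr15:9529877-9530126, minus strand): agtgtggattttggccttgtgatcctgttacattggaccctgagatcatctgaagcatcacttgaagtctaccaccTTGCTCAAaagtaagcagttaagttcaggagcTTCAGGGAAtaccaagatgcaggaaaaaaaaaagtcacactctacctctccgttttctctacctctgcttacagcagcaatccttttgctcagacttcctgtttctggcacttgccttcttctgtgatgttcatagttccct
Lifr (chr15:7129322-7129571, plus strand): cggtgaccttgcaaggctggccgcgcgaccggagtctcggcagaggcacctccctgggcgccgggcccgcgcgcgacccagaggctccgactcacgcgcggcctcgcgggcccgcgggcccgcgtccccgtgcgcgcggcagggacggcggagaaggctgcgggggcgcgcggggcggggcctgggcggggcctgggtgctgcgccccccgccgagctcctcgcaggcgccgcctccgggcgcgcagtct
Lifr (chr15:7140292-7140541, plus strand): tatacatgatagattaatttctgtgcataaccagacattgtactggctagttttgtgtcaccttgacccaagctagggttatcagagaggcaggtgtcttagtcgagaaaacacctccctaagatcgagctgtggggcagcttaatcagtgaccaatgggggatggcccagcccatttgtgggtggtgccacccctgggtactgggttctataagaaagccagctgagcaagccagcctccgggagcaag

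The motifs were a STAT site (TTCNNNGAA), an IRF core (GAAANNGAA), a C/EBP core (TTGCNNAA), a PU.1 site (GAGGAAGT) and an NF-kB site (GGGANTTTC), each searched on both strands, where N is any base. The Il18rap window holds 1 PU.1 match that begins 79 bases before the start, a motif present in 2.44% of all 32851 promoter windows. The Il7r window holds a STAT match that begins 142 bases before the start and a C/EBP match that begins 174 bases before it. These motifs occur in 7.02% and 9.56% of all windows. The Csf3r window and both Lifr windows hold none of the 5 motifs, which says only that these letters are not there. An IRF core was found in 7.13% and an NF-kB site in 0.941% of all windows. Of the 3 other chains at least 2-fold apart, Il15ra has an IRF match that begins 149 bases before the first of its 2 listed starts. Of the 44 chains, 38 had a window, and Il17ra, Csf1r, Csf2rb, Il2rb, Il12rb1 and Il27ra were not used here. Among the 46 windows of these 38 chains, 5 held a STAT site, 5 a C/EBP core, 2 an IRF core, 1 a PU.1 site and 1 an NF-kB site. A match is a description of letters and not a bound site.

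**Figure D3:**
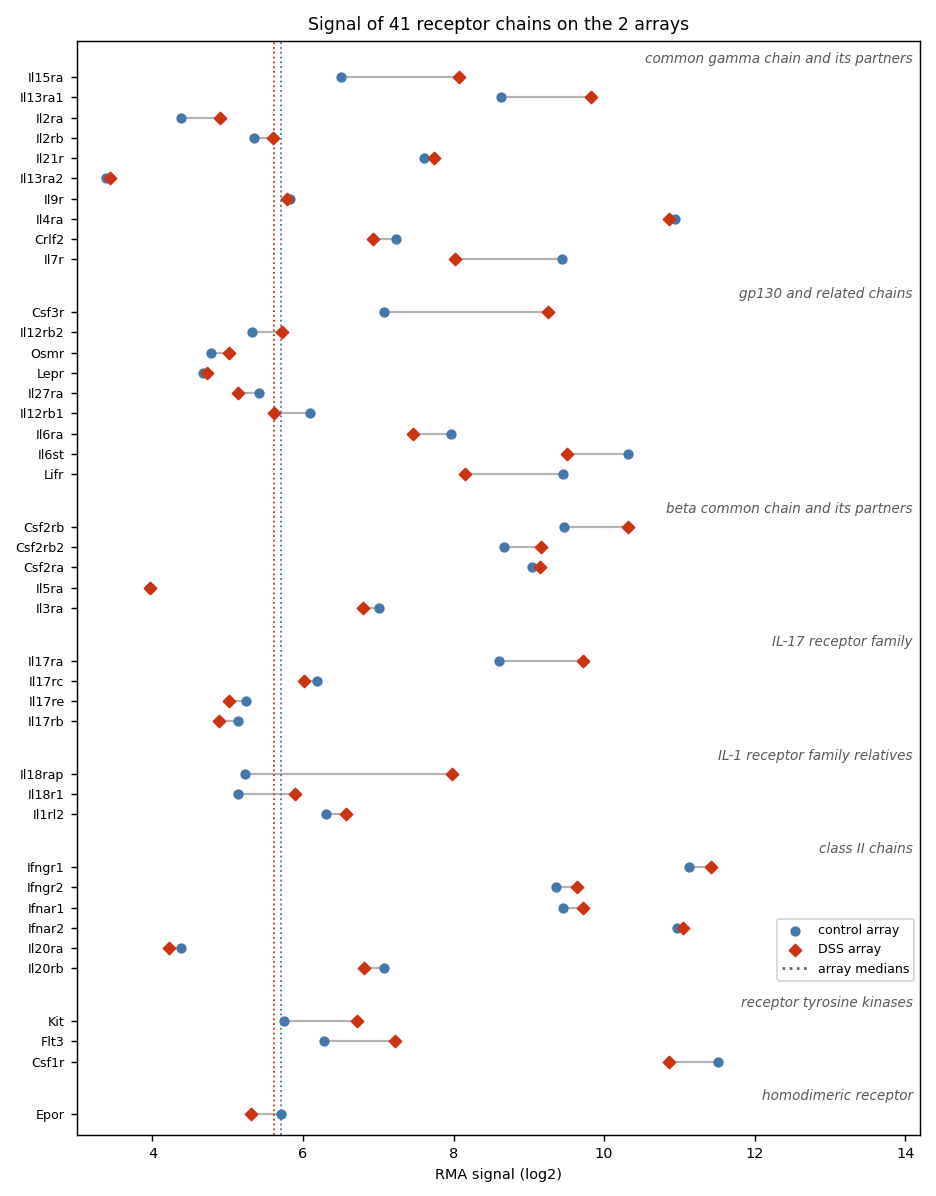
RMA signal (log2) of the 41 measured receptor chains, with circles for the control array and diamonds for DSS, 1 row per gene, grouped by receptor family and ordered by difference within it. Dotted lines are the medians of the 2 arrays. The longest bars belong to Il18rap and Csf3r on the higher side and to Il7r and Lifr on the lower side.

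In the IL-1 receptor family, the accessory chain of the IL-18 receptor had the largest difference of all 41 chains. Il18rap, which the receptor needs to signal, read 5.23 in control and 7.98 in DSS, a 6.72-fold higher value, and 0.609% of genes past the signal rule had a larger difference. Its control signal was below the array median, and whether it exceeded background was not tested, so the size of the fold is uncertain. Il18r1, the chain that binds IL-18, read 5.13 in control and 5.89 in DSS, so it was under the median in control and only just above it in DSS. Il1rl2, the receptor for the IL-36 cytokines, read 6.30 and 6.58, a difference of 0.28 that is no larger than the SD between probe sets. IL-18 receptor chains are carried by T and NK cells, and neutrophils also express Il18rap. The cells were gated on IAb and F4/80, and whether the gate removed all of these cell types was not tested. Of 10 T and NK cell markers, 7 were below the median of both arrays, Cd3d, Cd3e and Cd3g among them. The other members of that list, Cd4, Cd28 and Thy1, had control signals of 9.04, 8.29 and 6.43 and DSS signals of 7.39, 5.45 and 6.39. Neutrophil markers were higher at the same time, 12 of 16 by at least 2-fold. Which cells carried the Il18rap signal was not tested.

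Among gp130 and its relatives, the G-CSF receptor stood on one side and the LIF receptor on the other. Csf3r, the receptor through which G-CSF drives neutrophil production and survival, read 7.08 in control and 9.25 in DSS. That is 4.51-fold higher, and 0.959% of genes past the signal rule had a larger difference. It was above the array median on both arrays. Ly6g, the surface antigen that marks mouse neutrophils, read 4.04 in control and 10.01 in DSS on the same arrays. Lifr, the chain that pairs with gp130 in the LIF receptor, had a signal of 9.45 without and 8.15 with DSS, 2.45-fold lower. Il6st, which encodes gp130, the shared signalling chain for IL-6, LIF and oncostatin M, read 10.31 and 9.51. Il6ra, the chain that binds IL-6, read 7.97 and 7.47. Neither of these reached 2-fold, and Lifr, Il6st and Il6ra stayed lower under median centring and loess centring. The summed signal of the resident macrophage markers, which include the scavenger receptor gene Cd163 at 10.74 and 7.43, was also lower in DSS.

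The other members of that family were dim. Il12rb1, which IL-12 and IL-23 receptors share, read 6.10 in control and 5.62 in DSS, the latter at the array median. Il12rb2, the second chain of the IL-12 receptor, read 5.32 and 5.72. Osmr, the oncostatin M receptor chain, read 4.78 and 5.01, Il27ra 5.42 and 5.14, and the leptin receptor gene Lepr 4.67 and 4.72. These last 3 were below the median of both arrays.

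Chains that pair with the common gamma chain or with IL-4 receptor alpha differed in both directions. Il15ra, the high-affinity IL-15 receptor chain that presents IL-15 to neighbouring cells, read 6.501 in control and 8.07 in DSS, 2.97-fold higher. Il13ra1, which joins IL-4 receptor alpha to form the receptor that responds to both IL-4 and IL-13, read 8.63 and 9.83, 2.29-fold higher. Its partner Il4ra read 10.94 and 10.87, a difference of -0.07 that turned to 0.012 under median centring. The pair of chains in that receptor therefore gave unlike values on the same arrays. Il13ra2, the decoy receptor for IL-13, was far below the median at 3.38 and 3.44.

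Il7r had the largest difference in the lower direction. It encodes the IL-7 receptor alpha chain, which also serves the receptor for the epithelial cytokine TSLP, and it read 9.44 in control and 8.02 in DSS. That is 2.67-fold lower, and 1.51% of genes past the signal rule had a more negative difference. Crlf2, the other chain of the TSLP receptor, read 7.23 and 6.93. Il7r is best known from lymphocytes, among whose markers Cd3d, Cd3e and Cd3g were below the median of both arrays. The T and NK cell list also holds Cd4, Cd28 and Thy1. Their control signals were 9.04, 8.29 and 6.43, and their DSS signals were 7.39, 5.45 and 6.39. Of 4 measured B cell markers, 3 were below both medians, and Cd79b read 6.71 in control and 6.82 in DSS. Which cells carried the Il7r signal was not tested.

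The remaining chains of the group lay within 2-fold. Il21r read 7.61 in control and 7.74 in DSS. Il9r was near the median at 5.82 and 5.79, a difference whose sign turned under both centrings. The IL-2 receptor chains did not reach the median on either array, with Il2ra at 4.38 and 4.90 and Il2rb, which IL-15 uses as well, at 5.35 and 5.60.

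The receptors for GM-CSF and IL-3 were present on both arrays and did not reach 2-fold. Csf2ra, the chain that binds GM-CSF, read 9.04 in control and 9.15 in DSS. Csf2rb, the beta common chain that signals for GM-CSF, IL-3 and IL-5, read 9.46 and 10.32, 1.81-fold higher. Csf2rb2, its close paralog that serves IL-3 in mice, read 8.67 and 9.16. These paralogs have similar sequences, and whether their probe sets tell them apart could not be examined, so the values of both are uncertain. Il3ra read 7.004 and 6.80, and Il5ra, the eosinophil-associated IL-5 receptor chain, was below the median on both arrays at 3.97 and 3.96.

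In the IL-17 family, the shared chain was higher and the private chains were not. Il17ra, the chain common to the receptors for IL-17A, IL-17C and IL-25, read 8.60 in control and 9.71 in DSS, 2.16-fold higher. Il17rc, its partner for IL-17A and IL-17F, read 6.19 and 6.01. Il17rb, the partner for IL-25, read 5.14 and 4.88, and Il17re, the partner for IL-17C, 5.24 and 5.02. The last pair lay below the median of both arrays.

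Interferon receptor chains were bright on both arrays and differed little. Ifngr1 and Ifngr2, the ligand-binding and signalling chains for interferon gamma, had control signals of 11.12 and 9.35 and DSS signals of 11.42 and 9.64. Ifnar1 and Ifnar2, the chains for type I interferons, had control signals of 9.45 and 10.97 and DSS signals of 9.72 and 11.05. The 4 differences lay between 0.08 and 0.30, and that of Ifnar2 turned to -0.068 under loess centring. Of the class II chains for the IL-20 cytokines, Il20ra did not reach the median on either array, reading 4.38 and 4.22. Il20rb read 7.08 and 6.81 in its brightest probe set, and its 3 probe sets gave differences of -0.26, -0.07 and -0.26.

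None of the 3 receptor tyrosine kinases reached 2-fold. Csf1r, the M-CSF receptor on which tissue macrophages depend, read 11.52 in control and 10.86 in DSS, 1.58-fold lower. Flt3, a receptor of progenitors and dendritic cells, read 6.28 and 7.22. Kit, the stem cell factor receptor of progenitors and mast cells, read 5.75 and 6.71, from a control signal at the array median. Among the dendritic cell markers, a list that includes Flt3, 1 of 7 was more than 2-fold higher and 1 more than 2-fold lower. Of 7 mast cell and basophil markers, 6 were below the median of both arrays, and the remaining one, the histidine decarboxylase gene Hdc, read 6.18 and 10.85. Epor, the erythropoietin receptor, read 5.71 and 5.30.

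Genes of the ligands were set beside their receptors, all measured in the same sorted cells, so signals of ligands made elsewhere in the colon are not included. Of 45 ligand genes, 44 were measured and 22 passed the signal rule, of which 5 (22.7%, beside 3.99% of all genes past the rule) were higher by 2-fold or more and 2 (9.09%, beside 3.03%) lower by as much. The higher ones were Il1f9 (IL-36 gamma), Il6, Il23a, Il12a and Il18, and the lower ones were Kitl (stem cell factor) and Tslp. Il1f9 and Il12a passed the rule through the DSS array only and Kitl and Tslp through the control array only, so the rule favoured their differences. With the median required on both arrays, 3 ligand genes were higher and 0 were lower, and the share of all genes was not counted at that setting. The median difference of the 22 ligand genes past the signal rule was 0.11.

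For IL-6, LIF and stem cell factor, the ligand gene and receptor chains differed in opposite directions, with the chains other than Lifr within 2-fold. Il6 read 6.42 in control and 8.98 in DSS, while both chains of its receptor were lower by less than 2-fold. Lif read 6.17 and 7.11 and oncostatin M (Osm) 8.14 and 9.06, beside the negative differences of Lifr and Il6st, while Osmr had a difference of 0.23 at signals under both medians. Kitl read 6.83 and 4.57, the latter below the array median, beside a Kit difference of 0.96.

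For IL-18, G-CSF, TSLP and IL-36 gamma the differences of ligand and receptor had the same sign. Il18 read 7.45 in control and 8.46 in DSS, a difference of 1.003 that lies on the 2-fold line, beside the higher Il18rap. Csf3, which encodes G-CSF, read 5.36 and 6.05, with a control signal below the median, beside the higher Csf3r. Tslp read 7.12 and 4.88, the latter below the array median, beside the lower Il7r. Il1f9 read 5.46 and 10.77, a 39.9-fold higher value from a control signal below the median. It stood beside Il1rl2 with a difference of 0.28, no larger than the SD between probe sets. For IL-12 the signs were mixed. Il12a read 4.998 and 6.74, with a control signal below the median, and Il12b, the other ligand gene of IL-12, read 6.51 and 7.14. The receptor chain genes Il12rb1 and Il12rb2 had differences of -0.47 and 0.39. Il23a, whose product signals through a receptor that includes the Il12rb1 chain, read 6.58 and 8.82.

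Some receptor differences stood beside ligand genes that barely differed. Il15 read 7.76 and 7.73, beside Il15ra at a difference of 1.57. Il13 read 6.26 and 6.21 and Il4 5.24 and 5.14. Il17a read 5.58 and 5.42 and Il17f 5.83 and 5.71, near the medians. Il17c and Il25, whose products also signal through Il17ra, read 6.003 and 5.80, and 4.86 and 4.90. Il7 read 4.14 and 4.05, under both medians. Csf1, a ligand of Csf1r, read 5.72 on both arrays. Il34, the other ligand gene of Csf1r, read 5.44 in control and 5.17 in DSS, under both medians.

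**Figure D4:**
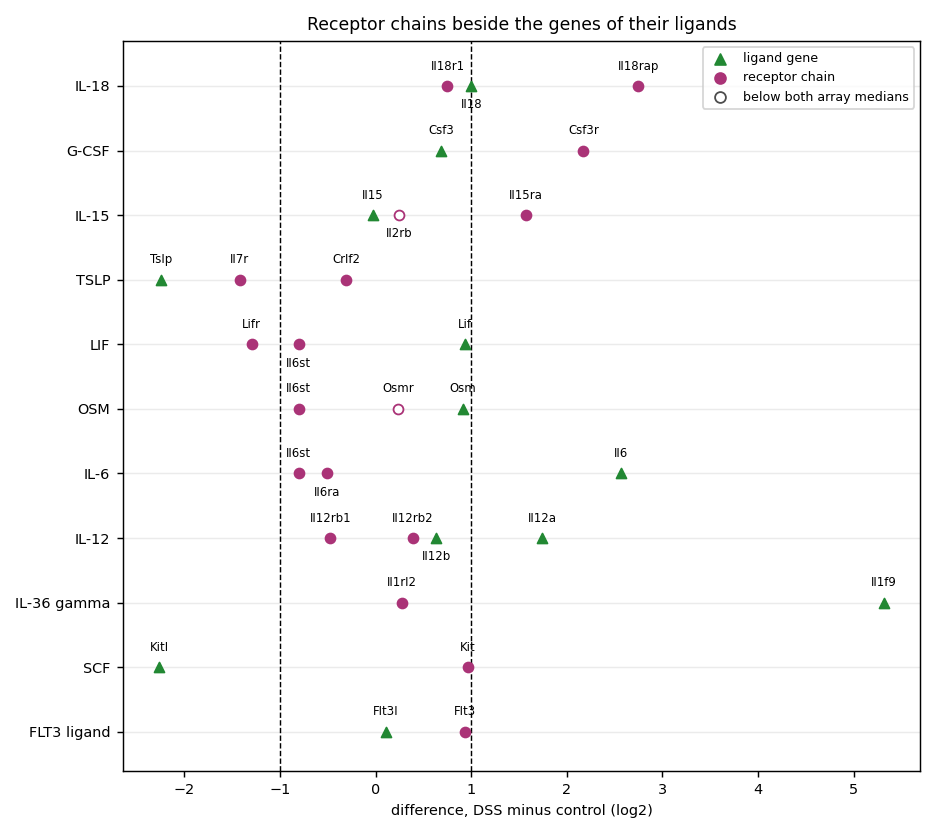
Difference between the DSS and control arrays (log2, horizontal axis) for the receptor chains (circles) and ligand genes (triangles) of 11 cytokines, with dashed lines at 2-fold and open symbols for genes below the median of both arrays. Il6 and Lif lie to the right of their receptor chains, Kitl lies to the left of Kit, and Tslp and Il7r lie on the same side.

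Downstream of the receptors, the share of signalling genes at 2-fold was near that of all genes. Of 22 JAK, STAT, adaptor and kinase genes, 19 were measured, all 19 passed the signal rule, 1 (5.26%, beside 3.99% of all genes past the rule) was at least 2-fold higher and 0 were lower, beside 3.03%. Jak2, the kinase used by the GM-CSF, G-CSF and interferon gamma receptors among others, read 9.55 in control and 10.63 in DSS, a difference of 1.08 that fell short of 2-fold under loess centring. The next largest were Stat4, a mediator of IL-12 signals, at 7.33 and 8.20, Myd88, the adaptor of the IL-18 receptor, at 8.70 and 9.56, and Stat2, a mediator of type I interferon signals, at 7.99 and 8.68. Pik3r1, a regulatory subunit of PI3 kinase, lay furthest the other way at 9.996 and 9.62. Of the 19, 17 had positive differences, beside 5179 of all 11163 genes past the rule. The median was 0.27, beside -0.03 over all genes past the rule. All 19 reached the median on both arrays, and the part of signal level in these values was not tested.

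Genes that restrain cytokine signals also had a share near that of all genes. Of 21 such genes, all passed the signal rule, 1 (4.76%, beside 3.99%) was at least 2-fold higher and 0 were lower, beside 3.03%, with a median difference of -0.10. Ptpn1, a tyrosine phosphatase that acts on JAK kinases, read 8.53 in control and 10.03 in DSS, 2.83-fold higher. Socs5, a SOCS-box feedback protein, read 8.27 and 7.49, the ubiquitin ligase gene Cblb 8.01 and 8.72, and Cish, a STAT5-induced inhibitor, 5.90 and 6.53. Neutrophil and monocyte markers were higher on the same DSS array by the amounts given above, and their part in the values of these genes was not tested.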

How the data were processed

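Sorted colonic macrophages were profiled on 1 control and 1 DSS array. Biotin-labelled cRNA was made from 100 ng of total RNA, per the labels' protocols. The authors deposited log2 signals for 35556 probe sets, and RMA is named, without version, in the submitters' processing notes. The RMA settings and a genome build are not stated in these sources. RMA compresses differences of dim probe sets.

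Genes were named from the platform annotation (21789 probe sets with 1 symbol, 1621 with several and 12146 with none). All 41 measured chains matched the RefSeq gene table by Entrez identifier and symbol. Where a gene had several probe sets, the one with the highest mean was used. Array medians rest on 28939 probe sets, leaving out 6617 identifiers below the lowest annotated one. The signal rule required the array median on at least 1 array. Differences were counted at 2-fold, with no test or p-value. Named genes were all chains and ligands of chains at least 2-fold apart. Not every ligand of Lifr was set beside it. Clcf1, with a difference of 0.26, and Ctf1, with -0.18 at signals under both medians, were left out. From each pathway list the genes at least 2-fold apart, or else the 4 with the largest differences, were named with the one furthest the other way. Ligands of other chains were chosen after their values were seen. The members and lists were chosen with earlier results of these data known. Proteins were not used here. Promoter motifs were chosen with the differences known, and the IRF and NF-kB patterns were revised after matches to other spellings were seen. The steps were tested on simulated data. Alternatives covered scaling, probe set choice, signal rule, a floor and the fold. The number of arrays limits the precision. Python 3.11.15, numpy 2.4.6, pandas 2.3.3, statsmodels 0.14.6 and matplotlib 3.10.9 were used.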

Additional observations from a re-analysis of the deposited data

How the results depend on the processing

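Il18rap, Csf3r, Il15ra, Il13ra1, Il17ra, Il7r and Lifr stayed at least 2-fold apart under loess centring. They also did so under median centring and a floor at the 25th percentile, but these settings could not undo their calls. Median centring shifts every difference by the same small amount, and the floor left the differences of these chains unchanged. Other probe set choices could not change the calls either, since each of these chains has 1 probe set. Dropping the signal rule cannot undo a call and added no chain. Requiring the median on both arrays left out Il18rap, with 4 higher chains. At 1.5-fold the counts were 9 higher and 4 lower chains, and at 3-fold 2 and 0. The median over chains ranged from 0.08 without a signal rule to 0.21 under median centring, and their mean was 0.26. Chains with small differences changed sign. Under median centring Il4ra gave 0.012, Il5ra 0.081 and Il9r 0.050, and under loess centring Il5ra gave 0.040, Il9r 0.084 and Ifnar2 -0.068. Ligand counts were 9 higher at 1.5-fold, and 3 higher and 0 lower when the median was required on both arrays. Signalling genes numbered 5 higher at 1.5-fold, 0 at 3-fold and 0 under loess centring. Feedback genes numbered 3 higher and 1 lower at 1.5-fold and 0 higher at 3-fold. Fewer or more genes follow from the construction of the fold and signal settings, and for the sign changes the cause was not tested. The share of all genes was not counted at 1.5-fold, at 3-fold, under centring or with the median required on both arrays. The counts at these settings therefore cannot be set against all genes. No paired analysis was possible because each group has 1 array. Replicates could not be left out for the same reason. No background probes or detection calls were used, so whether signals below the array medians exceed background was not tested.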

Other observations

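Several receptor chains are encoded next to each other in the mouse genome, by the order of protein-coding genes in RefSeq (GRCm38.p6), and such neighbours gave both like and unlike values. On chromosome 2, Il2ra and Il15ra lie side by side with differences of 0.53 and 1.57, and Il2ra was below the median of both arrays. On chromosome 1, Il18r1 and Il18rap lie side by side with differences of 0.75 and 2.75. On chromosome 15, Osmr and Lifr lie side by side with differences of 0.23 and -1.29. Neighbours with like values were Ifnar1 and Ifngr2 on chromosome 16, at 0.26 and 0.29, Il17re and Il17rc on chromosome 6, at -0.22 and -0.18, though Il17re reached neither median, and Csf2rb2 and Csf2rb on chromosome 15, at 0.49 and 0.85, whose probe sets may not tell these paralogs apart. Il4ra and Il21r on chromosome 7 were both close to 0, with opposite signs, at -0.07 and 0.13.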
